A study of Mus musculus with 6 samples.

Results

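Heme oxygenase and its partners in heme and iron handling were followed in newborn mouse lenses that lack the heat shock transcription factor Hsf4. The set was given as 10 genes, which cover heme breakdown (Hmox1, Hmox2, Blvra and Blvrb), heme and folate transport (Slc46a1), iron storage (Fth1 and Ftl1), iron uptake (Tfrc), iron export (Slc40a1) and heme synthesis (Alas1). Its members were all probe sets, groups of short oligonucleotides against a transcript, that the platform annotation assigns to exactly 1 of these symbols. This gave 18 of 22690 probe sets, for 9 of the 10 genes. Ftl1 has no such probe set, because the 3 probe sets that name it also name other genes, and no value is given for it. Of the 18, 3 are array controls for Tfrc and were not tested, which left 15 tested probe sets among 22626. The genes were put together with the comparison already known, with Hmox1 lower and Slc46a1 higher in Hsf4-null lenses. The members' own differences are therefore given as a description, with no p-value for any of them and a count of calls given only beside its share over all probe sets, and they support nothing by themselves.

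The arrays were 3 of Hsf4-null lenses and 3 of wild-type lenses, all from newborn animals labelled as strain ICR and described as biological triplicates. The sources used here do not give the targeted allele, the number of lenses per sample or whether the wild-type animals were littermates. The 6 arrays were close in scale, with median log2 intensities from 5.22 to 5.38 and correlations of 0.991 to 0.994 within a group and 0.982 to 0.990 between groups. Hsf4 stood at a log2 intensity of 4.26, 4.09 and 3.78 on the Hsf4-null arrays and at 9.09, 9.39 and 9.56 on the wild-type arrays, so the targeted gene follows the labels, though whether its probe set lies in the deleted part is not stated. Y-linked Eif2s3y was high on Hsf4-null replicate 2 and wild-type replicates 2 and 3, at 10.3 to 10.8, and low on the others, at 3.20 to 4.35. Xist was at 5.84 on Hsf4-null replicate 3, which is thus low in both, and without that array Hmox1 and Slc46a1 differed by -2.49 and 1.90 on the log2 scale. Among lens markers, the crystallins Cryaa, Cryab, Cryba1 and Crybb1 and the fiber channel Mip lay at group means from 13.1 to 14.3 in both groups. The highest log2 value on any array was 14.4. By limma 1 of 8 measured lens markers, the beaded filament gene Bfsp1, fell. Cryab (log2 fold change -0.15) and Foxe3 (-0.38) did not pass, but were lower without overlap of the groups. The linear intensities of the 8 summed to 80384 to 84665 on Hsf4-null and 91256 to 91963 on wild-type arrays. The difference between the 3′ and 5′ control probe sets, a sign of RNA integrity, was 1.07 to 1.31 for Actb on the Hsf4-null arrays and 0.96 to 1.34 on the wild-type arrays.

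Heme is an iron-bearing ring that cells need for respiration and detoxification but that is oxidizing when free. Heme oxygenase opens the ring and releases iron, carbon monoxide and biliverdin, and biliverdin reductase then makes bilirubin. Hmox1 encodes the inducible enzyme, long known as a heat shock and oxidative stress protein, and Hmox2 the constitutive enzyme. The freed iron is stored in ferritin, or leaves the cell through ferroportin, while transferrin receptor brings iron in. In the lens, free iron can feed oxidative damage of the crystallins.

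Promoter windows were searched for all members found in the RefSeq table, and those of Hmox2, Blvra and Slc46a1 are printed, the genes with a window whose Hsf4-null and wild-type arrays did not overlap. RefSeq windows on GRCm38.p6 exist in the table used here for 8 of the 10 genes, with 14 windows in all (Hmox1 and Slc40a1 have none there), and were searched over the 250 bases before each annotated start. The searched letters, on both strands, were the paired heat shock units GAANNTTC and TTCNNGAA, the antioxidant response core TGACNNNGC and the hypoxia response core ACGTG. Capitals mark every match in the windows printed here, written 5′ to 3′ on the gene's strand. Hmox2 has 3 annotated starts, and of the pair of overlapping windows that hold the matches the upstream one is shown. The Hmox2 window is chr16:4756631-4756880, that of Blvra chr2:127070407-127070656 and that of Slc46a1 chr11:78465451-78465700, each on the plus strand.
Hmox2: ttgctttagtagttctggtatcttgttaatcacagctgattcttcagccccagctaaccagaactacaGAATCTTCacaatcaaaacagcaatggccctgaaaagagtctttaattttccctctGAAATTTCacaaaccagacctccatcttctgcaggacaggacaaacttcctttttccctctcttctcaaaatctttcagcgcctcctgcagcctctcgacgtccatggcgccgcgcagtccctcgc
Blvra: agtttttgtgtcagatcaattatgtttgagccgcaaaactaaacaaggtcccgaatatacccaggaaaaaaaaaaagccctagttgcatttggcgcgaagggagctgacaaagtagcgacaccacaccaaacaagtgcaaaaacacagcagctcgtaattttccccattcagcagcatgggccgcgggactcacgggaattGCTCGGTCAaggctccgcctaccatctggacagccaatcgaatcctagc
Slc46a1: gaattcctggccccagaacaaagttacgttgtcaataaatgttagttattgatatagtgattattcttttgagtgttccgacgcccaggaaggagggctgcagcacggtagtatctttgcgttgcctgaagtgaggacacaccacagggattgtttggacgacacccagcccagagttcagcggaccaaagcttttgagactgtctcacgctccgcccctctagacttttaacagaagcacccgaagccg

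The Hmox2 window holds GAATCTTC and GAAATTTC, which begin 182 and 126 bases before the start. A match to GAANNTTC was found in 2 of the 14 member windows, both of Hmox2 and overlapping each other, and in 6.69% of all 32851 windows. The Blvra window holds GCTCGGTCA, the antioxidant core read on the other strand, 49 bases before the start, and 10.2% of all windows hold such a match. No match to TTCNNGAA, which 7.17% of windows hold, was found in a member window. ACGTG was found in 2 member windows, of Blvrb and Tfrc, and in 16.6% of all windows. The Slc46a1 window holds none of these letters. A match says only that the letters are there, and binding was not measured.

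Hmox1 showed the largest difference of the 9 measured genes. Its linear RMA intensity was 733, 637 and 663 on the Hsf4-null arrays, against 3436, 4056 and 4028 on the wild-type arrays. Every Hsf4-null lens sample thus lay far below every wild-type sample, and the 3 samples of each group lay close together. On the log2 scale Hmox1 averaged 9.40 ± 0.10 in Hsf4-null and 11.90 ± 0.14 in wild-type lenses (SD, n = 3 each). The log2 fold change was -2.50 (standard error, SE, 0.11, 95% interval -2.76 to -2.24), which leaves 17.7% of the wild-type level. The gap between the highest Hsf4-null and the lowest wild-type array was 2.23. By size of decrease Hmox1 ranked 17 among 12393 genes, each represented by its brightest probe set. In whole lenses, fewer cells that express a gene and less RNA per cell cannot be told apart.

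Hmox2, the constitutive heme oxygenase, differed far less. It was at a log2 intensity of 8.18, 8.06 and 7.98 in Hsf4-null lenses, against 8.64, 8.37 and 8.20 in wild-type lenses. The groups did not overlap, but the highest Hsf4-null and the lowest wild-type array were only 0.01 apart. The log2 fold change was -0.33 (SE 0.13), with an interval of -0.64 to -0.02.

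The biliverdin reductases act on the product of heme oxygenase. Blvra, the main adult enzyme, was at 8.03, 8.44 and 8.33 in Hsf4-null lenses, against 8.58, 8.83 and 8.90 in wild-type lenses. All 3 Hsf4-null samples lay below the wild-type samples, and the log2 difference was -0.50 (SE 0.14, interval -0.83 to -0.17). Blvrb, which also reduces flavins, was at 5.89, 5.14 and 5.28 in Hsf4-null lenses, against 5.68, 5.53 and 4.61 in wild-type lenses. Here the groups overlapped widely, and the interval of the log2 fold change ran from -0.54 to 0.87, which includes the difference seen in Blvra.

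**Figure D1:**
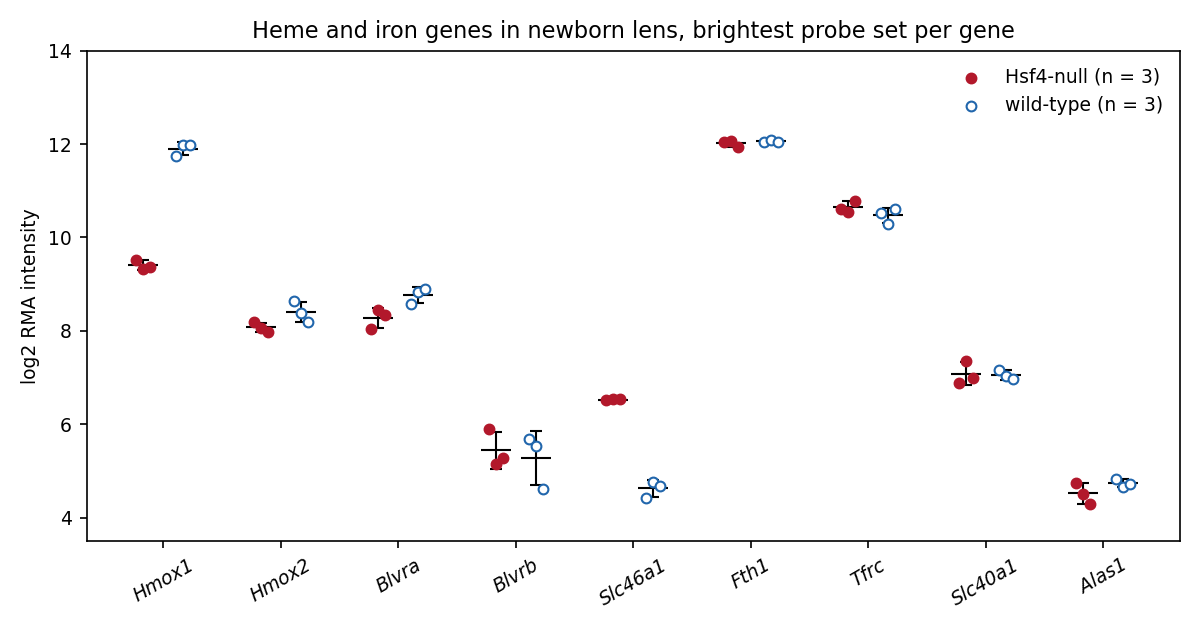
Log2 RMA intensity (vertical axis) of the 9 measured genes, by brightest probe set, on each Hsf4-null (filled) and wild-type (open) array, with bars at the mean ± SD of 3 arrays. Hmox1 lies at 9.31 to 9.52 in Hsf4-null and 11.75 to 11.99 in wild-type lenses, and Slc46a1 at 6.52 to 6.53 in Hsf4-null and 4.42 to 4.77 in wild-type lenses.

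Slc46a1 encodes a proton-coupled folate transporter that was first described as a heme carrier. Its brightest probe set was at a log2 intensity of 6.52, 6.53 and 6.53 in Hsf4-null lenses, against 4.42, 4.77 and 4.68 in wild-type lenses. The Hsf4-null samples were all higher and almost equal, while the 3 wild-type samples lay below the median probe set of 5.30. This is a log2 difference of 1.90 (SE 0.11, interval 1.64 to 2.17), or 3.73-fold in measured intensity. The other Slc46a1 probe set was at 6.32, 6.15 and 5.99 in Hsf4-null lenses, against 3.68, 4.30 and 4.14 in wild-type lenses. It gave a log2 fold change of 2.11 (SE 0.17, interval 1.71 to 2.52), so both probe sets moved the same way by a similar amount. The wild-type values lie near those of Hsf4 on the Hsf4-null arrays, at 3.78 to 4.26. They also lie near those of Y-linked Kdm5d on the arrays low in Eif2s3y, at 4.30 to 4.81. Whether these 2 transcripts were absent there was not tested. Whether Slc46a1 was above background in wild-type lenses was not tested, so its folds and intervals describe intensities and are not exact ratios of transcript. By size of increase Slc46a1 ranked 8 among the 12393 genes.

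Genes of iron storage, uptake and export overlapped between the groups in every tested probe set. Fth1, the ferritin heavy chain that oxidizes and stores iron, was at 12.04, 12.07 and 11.94 in Hsf4-null lenses, against 12.06, 12.08 and 12.05 in wild-type lenses. Its log2 fold change was -0.05 (SE 0.09, interval -0.26 to 0.16), the narrowest of the 15 intervals. Its dimmer probe set gave -0.03 (SE 0.12).
Tfrc, the receptor for iron-loaded transferrin, was at 10.60, 10.54 and 10.79 in Hsf4-null lenses, against 10.52, 10.28 and 10.61 in wild-type lenses by its brightest probe set. Tfrc differed by 0.17 in log2 (SE 0.12, interval -0.11 to 0.46). The other 2 tested probe sets of Tfrc gave 0.30 and -0.13, and the 3 array controls for Tfrc gave 0.09 (3′ end), 0.08 (middle) and 0.01 (5′ end). On all 6 arrays the 3′ control exceeded the 5′ control by 2.03 to 2.64, and the ranges of the groups overlapped.
Slc40a1, or ferroportin, the iron exporter, was at 6.89, 7.36 and 6.996 in Hsf4-null lenses, against 7.17, 7.03 and 6.97 in wild-type lenses. The log2 fold change was 0.02 (SE 0.14, interval -0.30 to 0.35), and 0.16 (SE 0.23) by the dimmer probe set. Alas1, the rate-limiting enzyme of heme synthesis outside red cells, lay below the median probe set in both groups. It was at 4.75, 4.50 and 4.30 in Hsf4-null lenses, against 4.82, 4.66 and 4.73 in wild-type lenses, a log2 difference of -0.22 (SE 0.13, interval -0.53 to 0.09). The dimmer Alas1 probe set gave 0.05 (SE 0.09).

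Of the 15 tested probe sets, 1 (Hmox1) was lower and 2 (both of Slc46a1) were higher at an adjusted p under 0.05 by limma, and 12 did not pass. Of all tested probe sets, 1.94% were lower and 0.72% higher by that rule. In 3 probe sets (Hmox1, Hmox2 and Blvra) the groups did not overlap with Hsf4-null lower, and in 2 (Slc46a1) with Hsf4-null higher. Among all tested probe sets these shares were 11.7% and 9.37%. The genes were chosen on this comparison, so nothing is read from these counts. The median log2 fold change was 0.02 over the 15 probe sets and 0.00 over all tested probe sets.

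**Figure D2:**
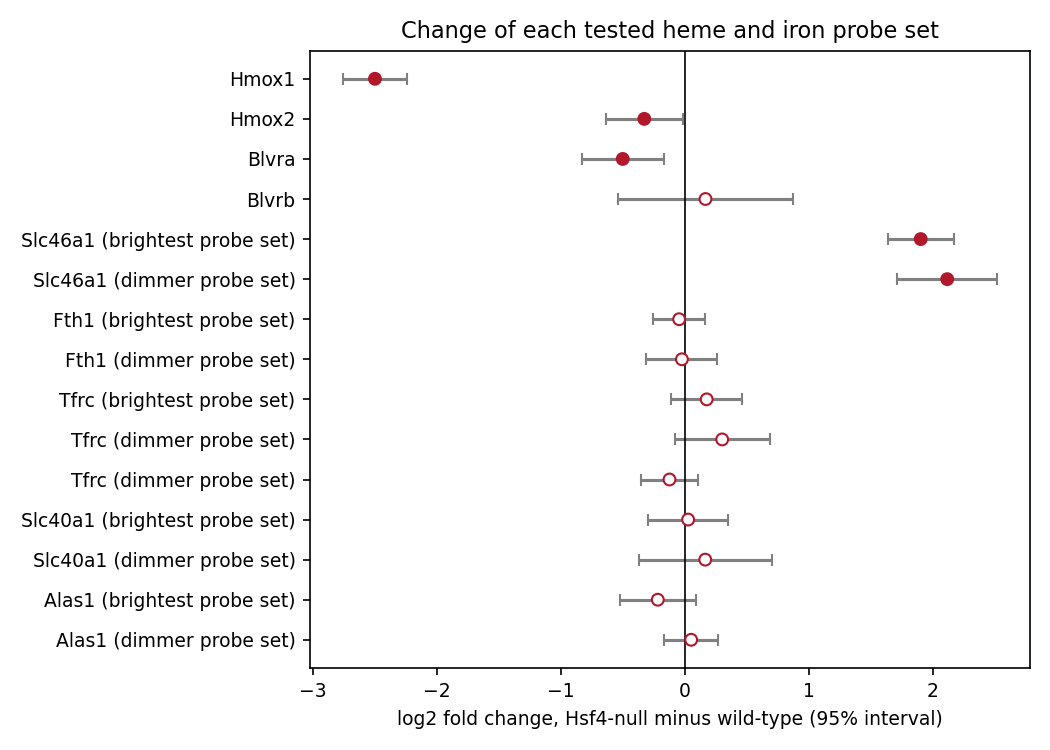
Log2 fold change of the 15 tested probe sets, Hsf4-null minus wild-type (horizontal axis), with 95% intervals from limma on 3 arrays per group. Filled points mark probe sets whose groups do not overlap, with Hmox1 at -2.50, Hmox2 at -0.33, Blvra at -0.50 and Slc46a1 at 1.90 and 2.11.

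The rest of the pathway was described with 10 lists of genes that do not include the 10 members. Of 117 listed genes 95 were measured, and each was represented by its brightest probe set. Of these, 3 rose (Slc25a37, Ciao2b and Nfe2l1), 1 fell (Hspa9) and 91 did not pass limma at an adjusted p under 0.05. Over all 12393 genes 0.775% were higher and 2.11% lower. Without adjustment, at p under 0.05, 10 of the 95 were higher and 5 lower, and over all genes 7.34% were higher and 8.38% lower by that unadjusted p, the share against which the unadjusted counts of each list below are to be read. The median log2 fold change was 0.00 over the 95 genes and 0.01 over all genes.

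In heme synthesis, none of 11 passed limma, the unadjusted p was under 0.05 for 3 higher and 0 lower genes (7.34% and 8.38% over all genes), and their median log2 fold change was 0.17. Fech, or ferrochelatase, which inserts iron into the ring, was at 9.56, 9.78 and 9.71 in Hsf4-null lenses, against 9.17, 9.03 and 9.47 in wild-type lenses. The Hsf4-null samples were all above the wild-type samples, but the log2 fold change of 0.46 (SE 0.13) had an adjusted p of 0.154 from limma. Of 10 genes for heme transport and binding none passed, and the unadjusted p was under 0.05 for 1 higher (Pgrmc1) and 0 lower genes. Flvcr2 had the largest difference among those above the median, at 0.35 (SE 0.16, limma adjusted p = 0.352), but at 0.17 without wild-type replicate 2, and Pgrmc1, which binds heme, stood next at 0.32.

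Iron uptake, storage and export genes gave no call either. Among 8 measured genes of iron uptake log2 fold changes ran from -0.23 to 0.25, with 0 past an unadjusted p of 0.05. The upper end was Slc39a14, a metal importer that takes up iron not bound to transferrin (limma adjusted p = 0.476). The 4 measured genes of iron storage and its chaperones ran from -0.06 to 0.12, also with 0 past an unadjusted p of 0.05. Of the genes above the median there, Pcbp2, an iron chaperone, was at 0.11 (SE 0.11). For iron export and its systemic control, 0 of 6 passed limma, and the unadjusted p was under 0.05 for 0 higher and 2 lower genes.
Of 5 measured genes for iron sensing and mitochondrial iron, 1 passed, and the unadjusted p was under 0.05 for 1 higher and 0 lower genes. Slc25a37, or mitoferrin, the mitochondrial iron importer, rose. It was at 6.78, 6.94 and 6.89 in Hsf4-null lenses, against 6.28, 6.13 and 6.02 in wild-type lenses. Slc25a37 differed by 0.73 in log2 (SE 0.11, limma adjusted p = 0.0128). The groups stood further apart than the arrays within each. The call was lost in 5 alternatives, which were those without Hsf4-null replicate 2 or 3 or wild-type replicate 2, with replicate number as a blocking term, and with the per-gene test of the study's methods under Benjamini-Hochberg adjustment, where adjusted p reached its highest value of 0.0958.

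Iron-sulfur clusters are built in mitochondria and handed to enzymes of the mitochondrion, cytosol and nucleus. Of 13 measured assembly genes 1 rose, 1 fell and 11 did not pass limma. The unadjusted p was under 0.05 for 2 higher and 2 lower genes, and the median log2 fold change was -0.17. Ciao2b, which helps load clusters onto cytosolic and nuclear proteins, was at 9.35, 9.39 and 9.20 in Hsf4-null lenses, against 8.21, 8.29 and 8.09 in wild-type lenses. Ciao2b differed by 1.12 in log2 (SE 0.10, limma adjusted p = 0.00138), and it passed under all 16 alternatives. In the RefSeq gene order Ciao2b stands near Hsf4 itself, with 10 measured genes between them. The part of that position in the result was not tested.
Hspa9, the mitochondrial Hsp70 that takes part in cluster transfer, fell. It was at 10.59, 10.69 and 10.59 in Hsf4-null lenses, against 11.07, 11.18 and 11.24 in wild-type lenses, a log2 difference of -0.54 (SE 0.10, limma adjusted p = 0.0288). A second bright probe set fell too, by 0.74 on the log2 scale, and 2 dim ones did not pass. The call by the brightest probe set was lost when Hsf4-null replicate 1, 2 or 3 or wild-type replicate 2 or 3 was left out, with median centring of the arrays, with the replicate block, and with that per-gene test (adjusted p up to 0.112).

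**Figure D3:**
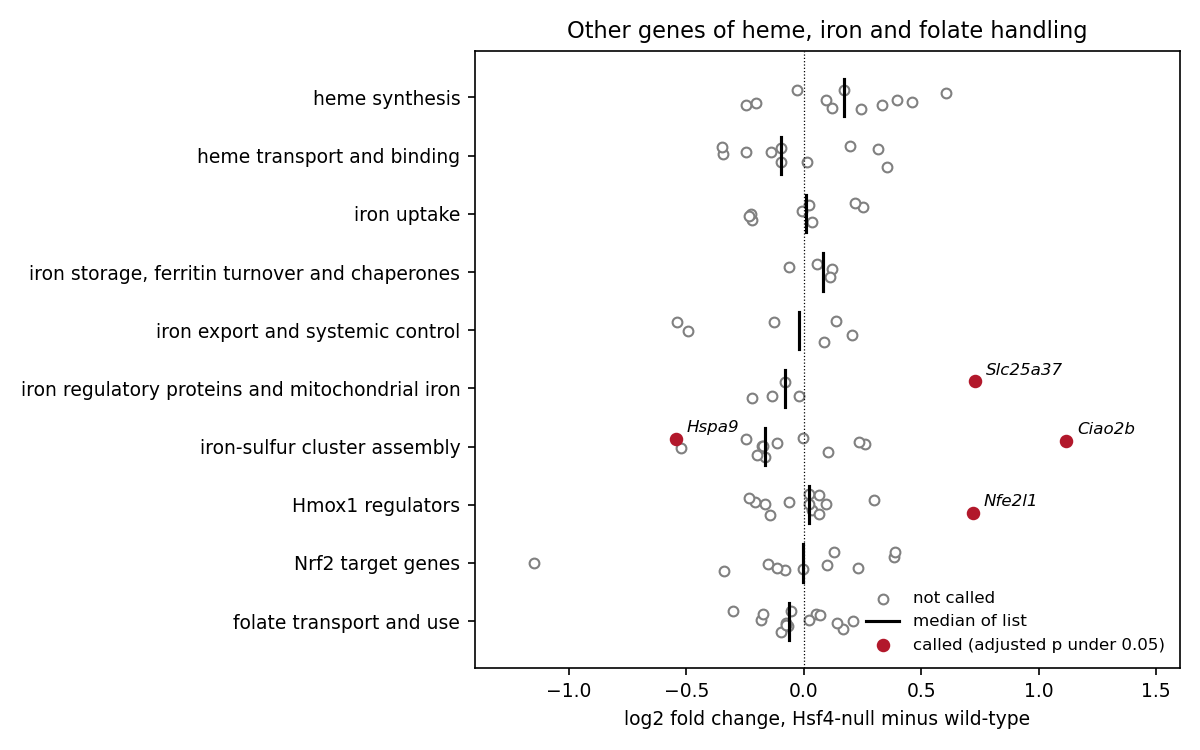
Log2 fold change, Hsf4-null minus wild-type (horizontal axis), of the 95 measured genes in 10 lists (rows), by brightest probe set. Filled red points mark the 4 genes that passed limma, Hspa9 at -0.54, Nfe2l1 at 0.72, Slc25a37 at 0.73 and Ciao2b at 1.12, and black bars are list medians.

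Of 13 measured transcription regulators that act on Hmox1, 1 rose and 12 did not pass. By the unadjusted p 2 were higher and 0 lower. Nfe2l1, a relative of Nrf2 that binds the same antioxidant elements, was at 10.19, 10.28 and 10.24 in Hsf4-null lenses, against 9.66, 9.46 and 9.41 in wild-type lenses. Its log2 fold change was 0.72 (SE 0.10, limma adjusted p = 0.0115), and the call was lost in 4 alternatives, without Hsf4-null replicate 3, without wild-type replicate 2, with the replicate block, and with that per-gene test (adjusted p up to 0.0886). Bach1, the heme-sensing repressor of Hmox1, did not pass, at 10.95, 10.80 and 11.03 in Hsf4-null lenses, against 10.75, 10.54 and 10.60 in wild-type lenses (log2 fold change 0.30, limma adjusted p = 0.244). Nfe2l2, which encodes Nrf2, was at 0.04 (SE 0.11) and its inhibitor Keap1 at 0.02 (SE 0.11) in log2 fold change. Hif1a, the hypoxia factor, was at -0.23 (SE 0.12).
Hmox1 is one of the target genes of Nrf2. Of 11 other measured targets, 0 passed limma, the unadjusted p was under 0.05 for 1 higher (Gsr) and 1 lower (Me1) gene, and the median log2 fold change was 0.00. The lower gene was Me1, or malic enzyme, at 7.43, 7.51 and 6.57 in Hsf4-null lenses, against 8.27, 8.47 and 8.21 in wild-type lenses. Its log2 fold change of -1.15 (SE 0.24) missed the threshold with an adjusted p of 0.0534 from limma. It passed in 5 of the 15 alternatives that give an adjusted p, which ran from 0.0248 to 0.302. Among the 5 was the fit without Hsf4-null replicate 3, at -0.85 (limma adjusted p = 0.0313).
Folate genes beside Slc46a1 gave no call by brightest probe set. Of 14 measured genes for folate transport and use, 0 passed limma that way and 0 passed an unadjusted p of 0.05. Their log2 fold changes ran from -0.30 to 0.21. Of the 3 probe sets of Gart, however, 2 passed limma as lower, while its brightest differed by -0.08. Folr1, a folate receptor, stood at the lower end, at 8.85, 8.52 and 8.34 in Hsf4-null lenses, against 8.83, 8.88 and 8.89 in wild-type lenses, and the groups overlapped (limma adjusted p = 0.357). Slc19a1, the reduced folate carrier, was at the upper end.

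**Figure D4:**
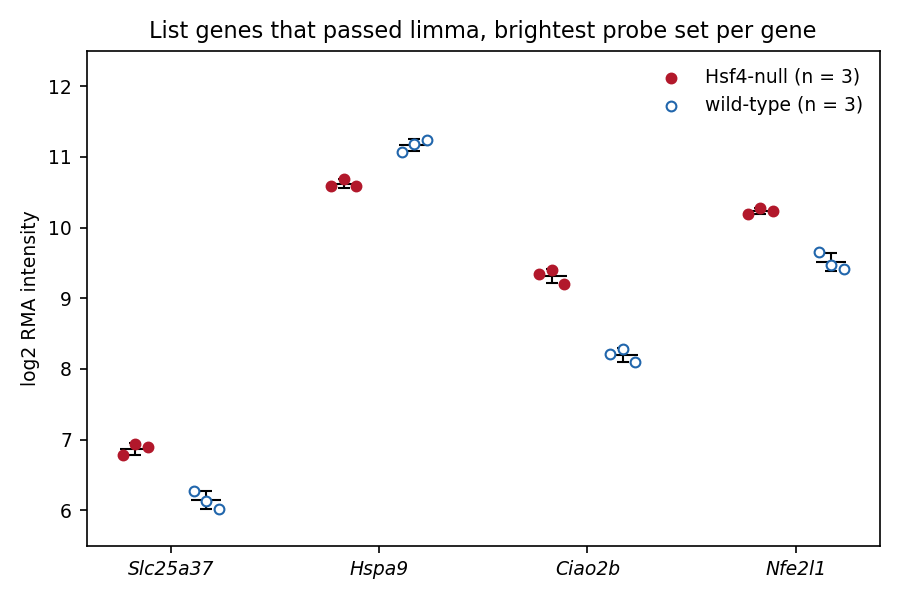
Log2 RMA intensity (vertical axis) of Slc25a37, Hspa9, Ciao2b and Nfe2l1 on each Hsf4-null (filled) and wild-type (open) array, with bars at the mean ± SD of 3 arrays. The groups do not overlap in any of the 4 genes, and Hspa9 is the one that is lower in Hsf4-null lenses.

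Cells other than lens cells can carry much heme oxygenase and ferroportin, macrophages above all. None of 16 measured macrophage markers passed limma, the unadjusted p was under 0.05 for 5 higher and 0 lower markers (7.34% and 8.38% over all genes), and their summed linear intensity was 1074 to 1963 on Hsf4-null and 640 to 1555 on wild-type arrays. Lyz2, which encodes lysozyme, differed most, by 1.68 (SE 0.43, limma adjusted p = 0.103). The median log2 fold change of the list was 0.29, with Cd163 lowest at -0.81, and 7 of the 16 markers lay above the median probe set. All 8 measured red blood cell markers lay below the median probe set, with sums of 152 to 163 on Hsf4-null and 119 to 132 on wild-type arrays, and the globin transcripts Hba-a1, Hbb-bh1 and Hba-x were at 3.32 to 3.82 in log2 group means, near the bottom of the scale. None of the 8 passed limma, and by the unadjusted p 2 were higher and 0 lower, Slc4a1, the red cell anion exchanger, at 0.72 (SE 0.17, limma adjusted p = 0.0774, groups not overlapping) and Alas2 at 0.61 (SE 0.25, limma adjusted p = 0.297). The 12 vascular markers summed to 2516 to 2581 on Hsf4-null and 1753 to 2381 on wild-type arrays, with a median log2 fold change of 0.32. None passed limma, and by the unadjusted p 4 were higher and 0 lower, with Cldn5 at 0.60, Kdr at 0.58, Plvap at 0.54 and Cdh5 at 0.26, each without overlap of the groups. Pigment cell markers, 8 in number, summed to 3596 to 4911 on Hsf4-null and 3077 to 4177 on wild-type arrays, and without Mitf, which made up most of the sum and differed by 0.03, the other 7 summed to 967 to 2009 on Hsf4-null and 383 to 1189 on wild-type arrays. Their list had a median of 0.46, 0 passed limma, and by the unadjusted p 2 were higher and 0 lower, the melanin enzyme gene Tyrp1 at 1.30 (SE 0.46, limma adjusted p = 0.232) and Pmel at 1.27 (SE 0.45, limma adjusted p = 0.233). Dct, another melanin enzyme gene, was at 1.30 (SE 0.70). Wild-type replicate 3 had the lowest sum, and the groups overlapped in each of Tyrp1, Pmel and Dct. The 9 mesenchyme markers summed to 2057 to 2598 on Hsf4-null and 1818 to 2097 on wild-type arrays, with a median log2 fold change of 0.17. By limma 2 of them rose and 0 fell (0.775% and 2.11% over all genes). These were Col1a1 at 1.89 (SE 0.31, limma adjusted p = 0.0201) and Twist1 at 0.998 (SE 0.11, limma adjusted p = 0.00341). The other 7 ran from -0.09 to 0.42 with overlapping groups, the collagens Col1a2 (0.07) and Col3a1 (0.17) among them. The part of these cells in the values of Hmox1, Slc46a1 and the other genes was not tested.

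Neighbours in the genome were looked at in the order of RefSeq genes. Hmox1 lies on the same chromosome as Hsf4, with 150 measured genes between them. Of the 20 measured genes nearest to Hmox1, 1 rose and 2 fell, with a median log2 fold change of -0.04. The one that rose, Tom1, is the next measured gene to Hmox1, at 0.55 (SE 0.11, limma adjusted p = 0.0468), the opposite direction to Hmox1. The 2 that fell were Sin3b (-0.60) and Smad1 (-0.78). Of the 20 nearest to Slc46a1, 0 rose and 2 fell (Spag5 at -1.23 and Ccnq at -1.33), with a median of -0.04. Over all genes 0.775% were higher and 2.11% lower by limma.

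Genes with the profile most like Hmox1 over the 6 arrays, among 6888 genes above the median, were Stambpl1, Hsf4 itself, Nif3l1, Pdlim1 and Dnajb1, an Hsp40 cochaperone, with Pearson r from 0.998 to 0.999. Their log2 fold changes ran from -5.30 for Hsf4 to -2.13 for Dnajb1. For Slc46a1 they were Nae1, Dhx32, Dnajb9, Nfil3 and Exosc7, with r from 0.988 to 0.996 and log2 fold changes from 0.22 for Exosc7 to 0.99 for Nae1. Nae1 also stands near Hsf4, with 14 measured genes between them. With 3 arrays in each group the r reflects mainly the difference between the groups and is given as a description.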

How the data were processed

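The authors normalized the arrays by RMA (background correction, a common distribution, 1 value per probe set) and deposited intensity values on a linear scale for Affymetrix mouse expression arrays. The sources used here do not give the software version. These values were put on the log2 scale and 64 array controls were removed. The remaining 22626 probe sets were fitted with limma 3.58.1 (R 4.3.3, moderated statistics, genotype as the one term). A gene passed at p under 0.05 after Benjamini-Hochberg adjustment over all of them, and intervals are at 95%. Of these, 20380 carry 1 gene symbol in the platform annotation, 691 several and 1555 are unnamed here. Symbols were updated by gene identifier to RefSeq (GRCm38.p6) for 20351. Each gene is shown by its brightest probe set, by the mean over the 6 arrays. "Above the median" means a mean log2 intensity above 5.30, the median over tested probe sets.

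The members and all gene lists were chosen with earlier results of these data known. Named genes are all members, every list gene that passed, the gene with the largest absolute change above the median in lists where none passed, and the 5 genes most like Hmox1 and Slc46a1. Bach1, Nfe2l2, Keap1, Hif1a, Gsr, Pgrmc1, Slc19a1, Gart, the named markers and the named neighbours lie outside that rule and were picked after their values were seen. Samples were treated as unpaired, and whether the replicate numbers pair them is not known. The study's methods join a t-test with significance analysis of microarrays (SAM), and of these the t-test alone was run, as an alternative. The scripts were tested on simulated data. The number of arrays limits the precision. Arrays of other mutants in the paper were not analysed here. Alternatives are listed in the closing section.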

Additional observations from a re-analysis of the deposited data

How the results depend on the processing

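Hmox1 and Slc46a1 kept direction and size under every alternative run, with log2 fold changes from -2.58 to -2.46 for Hmox1 and from 1.80 to 2.01 for Slc46a1. The 3 calls among the 15 probe sets (1.94% lower and 0.72% higher over all tested probe sets) stayed 3 whichever array was left out. They were 2 with the methods' t-test and Benjamini-Hochberg, with dim probe sets left out or with 1 probe set per gene. With that t-test unadjusted they were 4. The genes were chosen on this comparison, so nothing is read from the stability of their values and calls. Blvrb, Slc40a1 and other small differences changed by less than the replicate SD, though Blvrb and Slc40a1 changed sign with single arrays (from -0.17 to 0.37 and from -0.11 to 0.12). The 602 calls over all probe sets were 382 with the replicate number as a block, 85 with the methods' t-test and Benjamini-Hochberg, 2912 with that test unadjusted, 366 with 1 probe set per gene, and 321 to 562 without single arrays, lowest without Hsf4-null replicate 3, with 335 without wild-type replicate 2 and 358 without wild-type replicate 3. The 4 list genes that passed were 1 with the replicate block, 1 with the methods' t-test and adjusted p, 18 with it unadjusted, and 1 to 4 without single arrays, lowest without wild-type replicate 2 and at 2 without Hsf4-null replicate 2 or 3. They were 5 (3 higher and 2 lower) when a call of any probe set of the gene counted. Same-numbered arrays had deviations from their group means correlated at 0.25, -0.21 and -0.08, and only 1 of 3 Hsf4-null arrays correlated best with its own number. With 3 arrays in each group, such correlations cannot settle whether the numbers pair the samples. With the block, limma adjusted p was 0.0565 for Slc25a37, 0.0522 for Nfe2l1 and 0.0858 for Hspa9. Array weights, trended or robust variance, repeated quantile normalization, median centring and a filter on dim probe sets kept each of these counts within 1.5 times. The cause of the changes was not tested. Probe sets below the median, those of Alas1 among them, limit what a missing call can show.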

Other observations

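Ceruloplasmin (Cp), the copper ferroxidase that works with ferroportin in iron export, had a lower mean in Hsf4-null lenses in 7 of 7 probe sets. The log2 fold changes ran from -1.21 to -0.26, although 0 passed limma (adjusted p from 0.124 to 0.485). The groups were free of overlap in only 3 of the 7, which share the same arrays and are not independent. In the probe sets with the largest differences, at -1.21 and -1.15, wild-type replicate 3 (4.94 and 4.17) lay below every Hsf4-null array. By its brightest probe set Cp was at 9.71, 9.71 and 9.73 in Hsf4-null lenses, against 10.44, 10.44 and 9.90 in wild-type lenses. Wild-type replicate 3 was the lowest wild-type array in 7 of the 7 probe sets, and without it the log2 fold change was -0.72 (limma adjusted p = 0.021, with 0.021 to 0.367 over all alternatives). Hfe, an iron sensor at the cell surface, was at -0.49 (SE 0.14, limma adjusted p = 0.147).

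Cd163, the scavenger receptor for hemoglobin on macrophages, had the lowest log2 fold change of the 16 macrophage markers. Cd163 was at 6.51, 4.84 and 5.93 in Hsf4-null lenses, against 6.83, 7.01 and 5.87 in wild-type lenses, with overlapping groups and a log2 difference of -0.81 (SE 0.44, limma adjusted p = 0.437). The list had a median of 0.29. By the unadjusted p 5 of its markers were higher (Lyz2, Ptprc, Cd68, Aif1 and Vsig4) and 0 lower, and none passed limma. Alas2, the heme synthesis enzyme of red cells, was at 5.52, 5.62 and 5.26 in Hsf4-null lenses, against 5.42, 4.38 and 4.78 in wild-type lenses (log2 fold change 0.61, limma adjusted p = 0.297). Hfe, Cd163 and Alas2 were singled out after their values were seen.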
